A study of Mus musculus with 4 samples.

Results

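Cytochrome P450 genes were taken as those whose name on the array starts with Cyp followed by a digit, a letter and a digit. A name was kept where at least 3 of its probes had input DNA signal well above background on all 4 arrays. Of 63 such names on the design, 55 passed, out of 18332 genes that passed the same minimum. Together the 55 genes carried 641 probes. Of these, 41 belonged to subfamilies with at least 3 names on the array and are called clustered, 12 were alone in their subfamily and are called single-copy, and Cyp1a1 and Cyp1a2 formed a pair. These labels follow names, not positions: the single-copy genes Cyp2f2, Cyp2g1, Cyp2s1, Cyp4b1 and Cyp4x1 have 6 to 9 other P450 genes within 1 Mb, and the clustered genes Cyp2c44, Cyp3a13 and Cyp4f18 have 0. The 8 names that were left out (Cyp2b13, Cyp2c38, Cyp2c54, Cyp2c67, Cyp3a41a, Cyp3a44, Cyp4a12a and Cyp4a12b) were all clustered, had 0 to 2 usable probes each, and showed no MeDIP signal above background on any array. Just inside the minimum were 6 genes with 3 probes, and just outside it were 2 names with 2.

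Genomic DNA of mouse leukaemic cells was measured by MeDIP-chip, in which methylated DNA is pulled down with an antibody and hybridised to an array beside the input DNA. There was 1 array for each of 4 groups: WT cells untreated, KO cells untreated, WT cells with decitabine and KO cells with decitabine. Decitabine, a nucleoside analogue that inhibits DNA methyltransferases, was given over 3 days, 20 nM at intervals of 24 h, with harvest of treated and untreated cells alike at 72 h. The source names call the cells Mll5 wild type and Mll5 knockout, whereas the genotype field of the knockout names HOXA9 instead. "KO" below is used as the sample titles use it, and the array, which holds DNA, cannot check it. All 4 cultures grew in serum with human interleukin-6, mouse interleukin-3 and mouse stem cell factor. With 1 array a group there was no replicate, so genotype, treatment and slide cannot be told apart for any single difference, and each difference has no replicate check. Because the arrays measured DNA, the leukaemic cell type could not be checked against expression markers.

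Cytochrome P450 enzymes are haem proteins that oxidise small molecules, taking electrons from a reductase. Families 1, 2 and 3 oxidise drugs, pollutants and other foreign compounds, mostly in the liver. Family 4 and subfamily Cyp2j oxidise fatty acids and eicosanoids, Cyp7 and Cyp8 enzymes make bile acids, and Cyp2r1 starts the activation of vitamin D. In the mouse many of the family 2, 3 and 4 genes arose by tandem duplication and lie side by side in clusters, whereas others stand alone. Methylation of CpG sites near a promoter is commonly found at genes that are silent in a tissue.

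The measure was the log2 ratio of MeDIP over input, averaged over the probes of a gene, with 0 set at the median of all probes of an array. A higher ratio means that more DNA was recovered with the antibody. For most probes the MeDIP signal was too dim to be measured: it was well above background at 25 (3.90%), 19 (2.96%), 71 (11.1%) and 85 (13.3%) of the 641 P450 probes on the arrays of WT and KO cells without drug and of WT and KO cells with decitabine, the order in which 4 values are given below. A probe above background on an array is called bright there. In 62.4%, 60.2%, 41.2% and 39.0% of the probes, in the same order, the scanner software had written a surrogate floor value in place of the MeDIP signal, and the ratio of such a probe follows its input brightness.

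The P450 probes that had measurable MeDIP signal without drug are best seen as sequences. Of the 641 probes, 15 in 12 genes (2.34%) were bright on all 4 arrays, against 2.63% of the probes of all genes. No CpG is held by 11 of these 15 (73.3%), close to the 73.6% of all P450 probes. Of those in introns or upstream of a gene, 7 are shown first, as printed on the array, 5′ to 3′ on the plus strand of mm9, with each CpG in capitals. Within intron sequence of Cyp2f2, a single-copy gene whose lung enzyme activates naphthalene, lay the probe at chr7:27905821-27905870 and that at chr7:27906044-27906103. The Cyp2c44 probe (chr19:44101982-44102041) is intronic, as is a Cyp3a59 probe (chr5:146891837-146891890). The other Cyp3a59 probe (chr5:146889537-146889584) lay at -1274 bp from the nearest transcript start, the Cyp2s1 probe (chr7:26604511-26604556) at -2602 bp, and the Cyp4f39 probe (chr17:32589497-32589543) at -15884 bp.
Cyp2f2 first probe: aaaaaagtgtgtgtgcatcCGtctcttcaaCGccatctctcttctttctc
Cyp2f2 second probe: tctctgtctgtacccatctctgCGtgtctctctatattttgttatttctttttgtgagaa
Cyp2c44: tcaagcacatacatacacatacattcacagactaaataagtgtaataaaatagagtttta
Cyp3a59 intron: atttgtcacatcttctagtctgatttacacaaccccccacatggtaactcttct
Cyp3a59 upstream: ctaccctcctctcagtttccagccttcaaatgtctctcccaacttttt
Cyp2s1: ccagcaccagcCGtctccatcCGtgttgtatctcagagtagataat
Cyp4f39: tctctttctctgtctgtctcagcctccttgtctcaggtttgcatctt

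Most of the 15 P450 probes bright on all arrays are rich in C and T on the printed strand, but the Cyp2c44 probe is not. The lowest share of C and T letters among the 15 was 43.3%. The median share of C and T letters was 66.0% in the 15 P450 probes bright on all arrays, against 51.7% in the 540 P450 probes bright on none, and 9 of the 15 reached 60%, against 21.3% of the 540. Over the probes of all genes the same shares were 46.0% of 8517 probes bright on all arrays and 19.1% of 263564 bright on none. This feature was looked at after the sequences had been seen and is given as a description.

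A further 32 probes in 22 P450 genes were bright on both decitabine arrays and on neither untreated array. No CpG is held by 20 of these 32 (62.5%), against 73.6% of all P450 probes. The following are intronic or upstream examples. Most of these examples hold a CpG, unlike most of the 32 probes. The pair in Cyp2a5 (chr7:27620620-27620664 and chr7:27620744-27620803) and 2 of the Cyp2a4 probes (chr7:27092957-27093008 and chr7:27093104-27093157) lay in introns of closely related steroid and coumarin hydroxylase genes. The intronic Cyp2b10 probe (chr7:26683008-26683058) lay 338 bp after the start of that phenobarbital-inducible gene, and another Cyp2f2 probe (chr7:27907269-27907328) 2318 bp after the start. A probe before Cyp2c70 (chr19:40265685-40265733) holds 4 CpG.
Cyp2a5 first probe: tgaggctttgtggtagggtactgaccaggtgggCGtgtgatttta
Cyp2a5 second probe: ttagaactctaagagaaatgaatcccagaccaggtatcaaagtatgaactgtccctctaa
Cyp2a4 first probe: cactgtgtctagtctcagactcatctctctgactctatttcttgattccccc
Cyp2a4 second probe: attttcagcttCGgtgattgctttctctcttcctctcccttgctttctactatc
Cyp2b10: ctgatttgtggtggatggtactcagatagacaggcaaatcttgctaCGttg
Cyp2f2 other probe: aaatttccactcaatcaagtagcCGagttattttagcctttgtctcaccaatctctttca
Cyp2c70: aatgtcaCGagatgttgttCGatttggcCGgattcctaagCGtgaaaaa

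The Cyp2b10 probe had log2 ratios of 0.40, 0.12, 1.72 and 1.93 on the 4 arrays, and the last-named Cyp2f2 probe 0.78, 1.04, 2.14 and 2.28. The Cyp2c70 probe with 4 CpG stood at -1.18, -0.10, 0.21 and 1.03. These 3 probes were picked for being bright with decitabine and not without, so the order of their values follows from that choice, and the untreated values are not above background. The first Cyp2a4 probe printed above occurs 2 times in mm9, and all 4 Cyp2a5 and all 20 Cyp2a4 probes have a near-identical copy elsewhere, so signal of these genes cannot be told apart from that of their copies.

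In all, 72 P450 probes (11.2%) were bright on at least 1 decitabine array and on neither untreated array, and 2 (0.312%) the other way round. Over all genes these shares were 13.3% and 0.308%. The count per gene followed: 19 and 15 of the 55 genes had a bright probe on the WT and KO untreated arrays, and 36 and 39 on the WT and KO decitabine arrays. Over all genes, 4.07%, 4.06%, 14.2% and 16.03% of the probes were bright on the 4 arrays. A count per gene over all genes is not given, so the P450 counts are not read as particular to P450 genes. No probe was bright on any array in 14 of the 55 genes, which had 3 to 15 probes each: Cyp2b9, Cyp2b19, Cyp2c29, Cyp2c37, Cyp2c39, Cyp2c50, Cyp2c66, Cyp2j5, Cyp2j6, Cyp3a25, Cyp4a31 and Cyp4f18 among the clustered genes, and Cyp7a1 and Cyp7b1 among the single-copy genes. On at least 1 array, 15.8% of the P450 probes and 18.7% of the probes of all genes were bright. In the 14 genes without a bright probe the MeDIP signal was not well above background. In most other genes the mean also includes probes that are not bright, so differences below are differences of deposited values on the log2 scale, no fold is read from them, and those of genes with no bright probe are not measured changes of MeDIP signal.

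**Figure D1:**
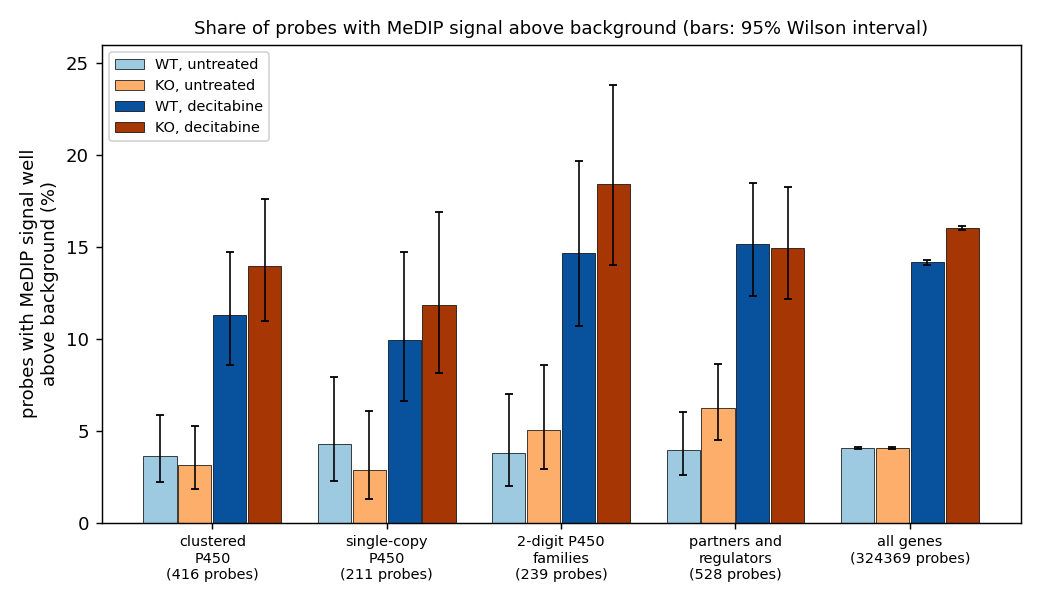
Percentage of probes that were bright in MeDIP (vertical axis) on each of the 4 arrays for clustered P450 genes, single-copy P450 genes, P450 families with 2-digit numbers, the P450 partners and regulators, and all genes; lines are 95% Wilson intervals, which cover counting error only. In each set both decitabine arrays stand above both untreated arrays, and the intervals of clustered genes (416 probes) and single-copy genes (211 probes) overlap on every array.

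The median ratios of clustered and single-copy genes lay close together. The median log2 ratio of the 41 clustered genes was -0.61, -0.58, -0.51 and -0.52 on the 4 arrays, and that of the 12 single-copy genes -0.55, -0.52, -0.52 and -0.58. The gap, clustered minus single-copy, was -0.07, -0.06, 0.01 and 0.06, with a mean of -0.01 and an SD of 0.06 over the 4 arrays. By a two-sided exact permutation test that flips the sign of the gap over the 4 arrays, p was 0.875, where 1 in 8 is the smallest value that 4 arrays allow, so this design could not have reached 0.05. On the WT untreated array the gap changed sign under 8 of 14 other settings, given in the closing part. Bright probes made up 3.61%, 3.13%, 11.3% and 13.9% of the 416 clustered probes and 4.27%, 2.84%, 9.95% and 11.8% of the 211 single-copy probes. The gap in these shares ranged from -0.66 to 2.09 percentage points (exact sign-flip p = 0.375, n = 4 arrays).

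The spread among genes was wider in the clustered group. On the WT untreated array clustered genes ran from -2.20 (Cyp2a5) to 0.43 (Cyp2c37) with an SD over genes of 0.55, and single-copy genes from -0.97 (Cyp4x1) to 0.10 (Cyp2f2) with an SD of 0.28. On the KO untreated array the SDs were 0.46 and 0.21, on the WT decitabine array 0.37 and 0.26, and on the KO decitabine array 0.44 and 0.29. Clustered genes had 3 to 30 kept probes each (416 in 41 genes) and single-copy genes 13 to 24 (211 in 12 genes). Whether probe number has a part in the wider spread was not tested. Within a gene the probes themselves varied more than genes did, with SDs over probes from 0.15 to 1.77 and a median of 0.83.

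**Figure D2:**
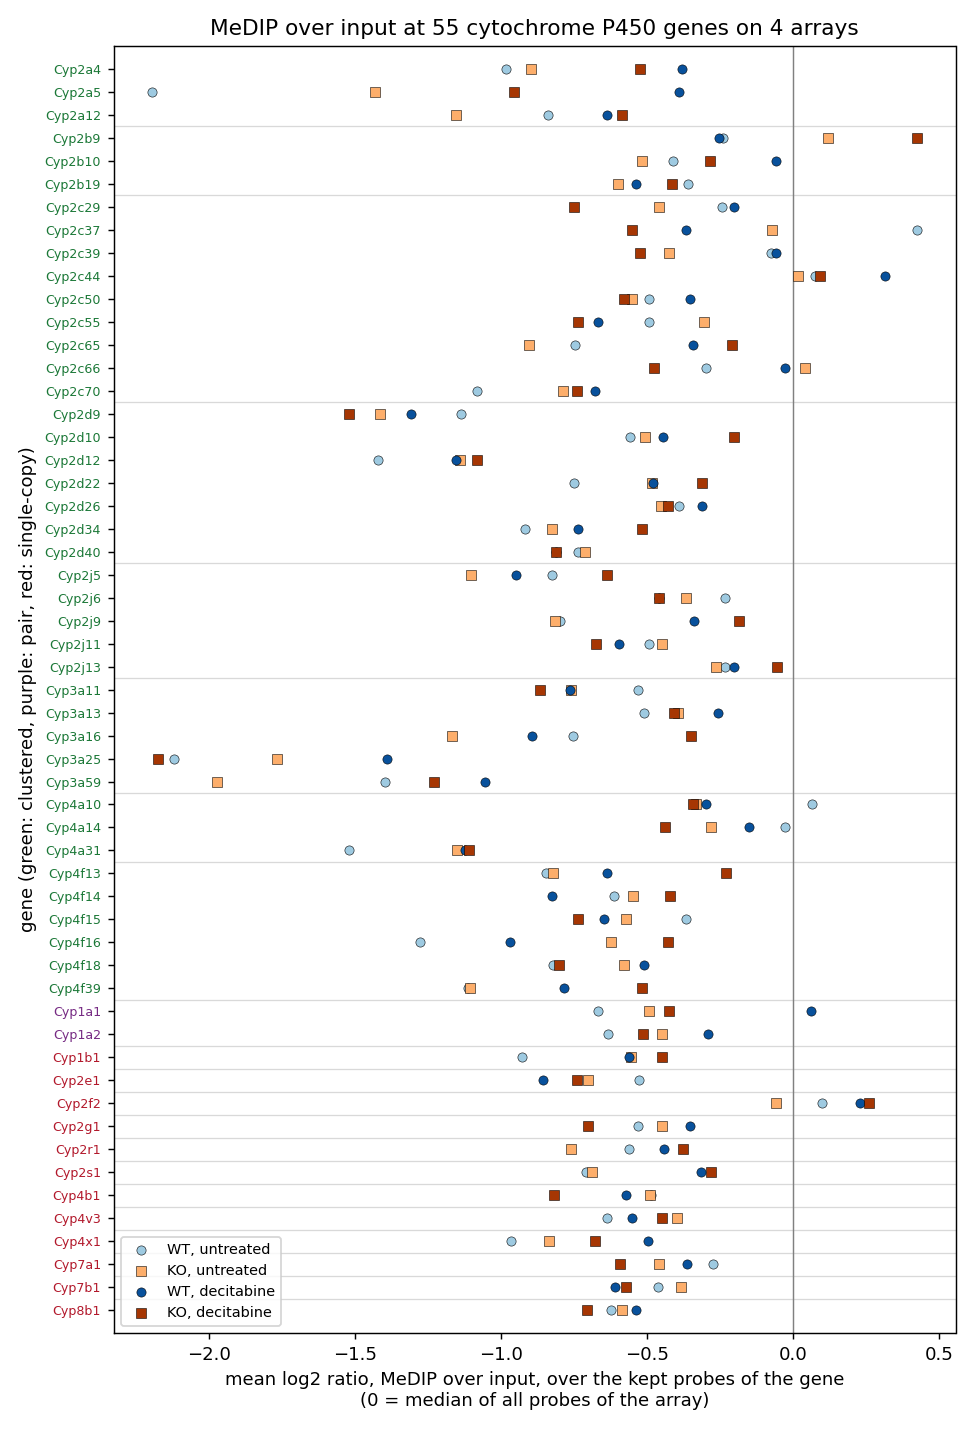
Mean log2 ratio of MeDIP over input (horizontal axis, 0 is the median of all probes of the array) for each of the 55 P450 genes, in rows grouped by subfamily, with 1 point per array; light points are untreated and dark points decitabine arrays, circles WT and squares KO cells. Most points lie below 0, Cyp2c44 lies above 0 on all 4 arrays, and Cyp2a5, Cyp3a25 and Cyp3a59 reach furthest down.

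The groups differed in CpG density, a property of the sequence. In a window of 500 bp at each probe, the ratio of observed to expected CpG, averaged over a gene, had a median of 0.13 in clustered and 0.24 in single-copy genes, against 0.34 over all genes. Just 1 of the 416 clustered probes (0.240%) and 3.32% of the 211 single-copy probes lay in a CpG-dense window (ratio of at least 0.75 and GC content of at least 55%), against 9.08% of the probes of all genes. In the 250 bp before the annotated gene start, clustered genes held a median of 1 CpG (0 to 7) and single-copy genes a median of 4 (0 to 17). Of the clustered genes 0 of 41 held 10 or more, of the single-copy genes 4 of 12 (Cyp1b1, Cyp2r1, Cyp4v3 and Cyp7b1), and of the 15486 genes of the array found in the annotation 8524. At least 1 CpG was held by 50 of the 55 P450 promoters (90.9%) and by 94.8% of those of all genes.

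The contrast is visible in these 250 bp windows, taken from the mm9 genome at the gene starts of GENCODE M1, 5′ to 3′ on the strand of the gene, with each CpG in capitals. Cyp2a5 (chr7:27620074-27620323, plus strand) and Cyp2c37 (chr19:40066659-40066908, plus strand) hold 1 CpG each and are the P450 genes with the largest positive and negative difference with decitabine in WT cells. Cyp2r1 (chr7:121706487-121706736, minus strand) holds 16 and Cyp4v3 (chr8:46418571-46418820, minus strand), a fatty acid hydroxylase, holds 17.
Cyp2a5 promoter: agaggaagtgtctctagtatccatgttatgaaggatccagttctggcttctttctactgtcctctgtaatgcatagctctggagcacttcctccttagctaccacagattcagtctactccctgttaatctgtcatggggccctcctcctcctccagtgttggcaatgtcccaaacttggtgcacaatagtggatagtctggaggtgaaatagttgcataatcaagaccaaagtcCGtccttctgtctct
Cyp2c37 promoter: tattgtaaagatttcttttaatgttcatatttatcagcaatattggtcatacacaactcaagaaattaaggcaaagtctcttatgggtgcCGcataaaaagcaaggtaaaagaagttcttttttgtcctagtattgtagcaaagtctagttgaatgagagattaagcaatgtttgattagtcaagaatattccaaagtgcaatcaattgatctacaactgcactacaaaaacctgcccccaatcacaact
Cyp2r1 promoter: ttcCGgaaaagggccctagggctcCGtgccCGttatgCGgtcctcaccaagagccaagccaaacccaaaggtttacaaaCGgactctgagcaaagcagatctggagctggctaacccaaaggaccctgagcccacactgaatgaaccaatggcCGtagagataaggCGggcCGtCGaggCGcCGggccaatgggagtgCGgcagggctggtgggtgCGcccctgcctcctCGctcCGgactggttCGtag
Cyp4v3 promoter: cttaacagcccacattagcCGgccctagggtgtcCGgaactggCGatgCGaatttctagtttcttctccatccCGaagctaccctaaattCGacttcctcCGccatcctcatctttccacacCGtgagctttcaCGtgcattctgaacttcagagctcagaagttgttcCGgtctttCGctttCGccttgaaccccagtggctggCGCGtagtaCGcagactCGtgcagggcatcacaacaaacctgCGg

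**Figure D3:**
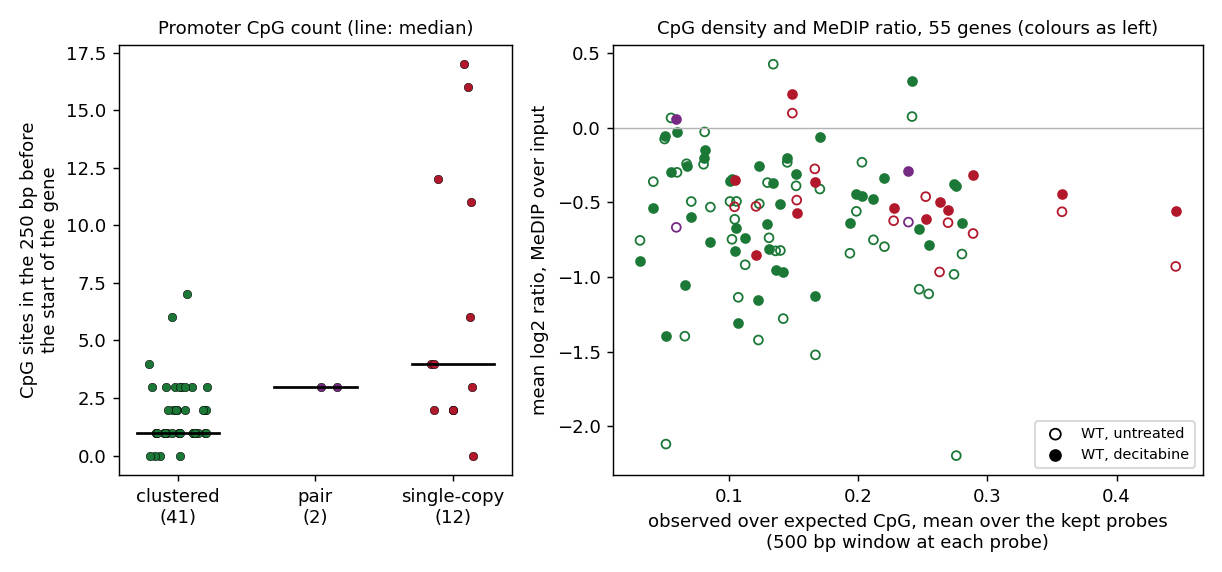
Left, number of CpG sites in the 250 bp before the gene start for each of the 55 P450 genes, by group, with the median as a line; right, mean observed over expected CpG at the probes of each gene (horizontal axis) against its mean log2 ratio on the WT untreated (open) and WT decitabine (filled) arrays. The promoter medians are 1 for clustered and 4 for single-copy genes, and on the right the Spearman correlation is -0.27 on the WT untreated and 0.01 on the WT decitabine array.

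Across the 55 genes the CpG ratio and the log2 ratio had Spearman correlations of -0.27, -0.12, 0.01 and 0.14 on the 4 arrays. Genes are not independent replicates, and no p is given. The input signal of a gene was related far more closely to its ratio, with Spearman correlations of -0.84, -0.79, -0.54 and -0.27 (over all 18332 genes -0.84, -0.74, -0.54 and -0.16). The input signal is also the denominator of the ratio. Between arrays the 55 log2 ratios had Pearson correlations from 0.625 (WT untreated with KO decitabine) to 0.835 (WT untreated with KO untreated). These share probe sequences and the input signal of a probe.

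By position, 72 of the 641 probes overlapped an exon of their gene, 212 lay in introns and 357 outside the gene model. Exonic probes had the lowest median log2 ratio on each array, -0.83, -0.83, -0.75 and -0.64, against -0.49, -0.42, -0.44 and -0.53 for intronic probes. Exonic probes were bright at 8.33% and 6.94% on the WT and KO decitabine arrays, intronic probes at 12.7% and 14.2%, and probes outside the genes at 10.6% and 14.0%. On the WT and KO untreated arrays the order differed. The shares there were 2.78% and 4.17% for exonic, 2.83% and 2.83% for intronic, and 4.76% and 2.80% for outside probes. Within 500 bp of a transcript start lay 135 probes of 43 genes, of which 2 (1.48%) were bright on each untreated array and 14 (10.4%) on each decitabine array. Probes holding 2 or more CpG (40 probes) were bright in 3, 2, 6 and 11 cases on the 4 arrays, the last being 27.5%. Over all genes such probes were bright at 3.92%, 4.85%, 17.2% and 19.8%. Probes without CpG (472 probes) were bright at 4.24%, 3.18%, 10.8% and 12.5%, against 4.04%, 3.71%, 12.7% and 14.2% over all genes. None of the 8 P450 probes in CpG-dense windows, which lie in Cyp1b1, Cyp2r1 and Cyp4f39, was bright on any array.

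Among genes of foreign compound oxidation (32 of the 55), Cyp2f2 and Cyp2c44 had the highest ratios over the 4 arrays, with Cyp2b9. Cyp2f2 stood at 0.10, -0.06, 0.23 and 0.26 on the 4 arrays (SDs over 20 probes 0.95, 0.81, 0.91 and 0.81). Of its probes 3, 3, 5 and 6 were bright, more than in any other single-copy gene on the KO decitabine array. Cyp2c44, an epoxygenase with no other P450 gene within 1 Mb, stood at 0.08, 0.02, 0.31 and 0.09 with 2, 1, 2 and 3 of 13 probes bright, and was above 0 on every array. Cyp2b9 was at -0.24, 0.12, -0.25 and 0.43, with higher values on both KO arrays, but none of its 3 probes was bright and each has a near-identical copy.

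The lowest ratios were those of Cyp3a25, Cyp3a59 and Cyp2d9, members of the steroid and drug oxidising subfamilies 3a and 2d. Cyp3a25 stood at -2.12, -1.77, -1.39 and -2.18 over 3 probes with no bright probe. Cyp3a59 stood at -1.40, -1.97, -1.05 and -1.23 over 5 probes, of which the same number, 2, was bright on each array. Of these 5 probes, 4 have a near-identical copy elsewhere. Cyp2d9 stood at -1.14, -1.41, -1.31 and -1.52 over 7 probes, with 0, 0, 1 and 1 bright. These 3 genes were low on all 4 arrays, and only Cyp3a59 had bright probes on each of them. Their input signal, the denominator of the ratio, lay above the array median on every array. In log2 it was higher by 2.02 to 2.14 for Cyp3a25, 2.66 to 2.91 for Cyp3a59 and 1.30 to 1.61 for Cyp2d9. The part of the input in these low ratios was not tested.

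The dioxin-inducible genes were near the middle of the range. Cyp1a1 had 3 probes and stood at -0.67, -0.49, 0.06 and -0.42, and Cyp1a2 had 11 and stood at -0.63, -0.45, -0.29 and -0.51. Cyp1b1, their single-copy relative, stood at -0.93, -0.55, -0.56 and -0.45 over 24 probes, with 1, 0, 4 and 5 bright. The Cyp1b1 value was lowest on the WT untreated array. Cyp2e1, the ethanol-oxidising single-copy gene, stood at -0.53, -0.70, -0.86 and -0.74 with 1, 0, 0 and 1 of 18 probes bright.

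The other drug-metabolising representatives lay in the same range. Cyp2b10 stood at -0.41, -0.52, -0.06 and -0.29, Cyp2d22 at -0.75, -0.48, -0.48 and -0.31, Cyp3a11 at -0.53, -0.76, -0.76 and -0.87, and Cyp3a13 at -0.51, -0.39, -0.26 and -0.41. On the decitabine arrays Cyp2d22 had 3 and 2 of 17 probes bright and Cyp2b10 1 and 1 of 16. Cyp3a11, the main hepatic 3a enzyme of the adult mouse, kept 1 of 11 probes bright on each array, at -327 bp from its start.

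Genes of fatty acid oxidation (16 of the 55) had medians of -0.62, -0.56, -0.58 and -0.45. The peroxisome proliferator-inducible ω-hydroxylase genes Cyp4a10 and Cyp4a14 stood higher than most, at 0.07, -0.33, -0.30 and -0.34 and at -0.03, -0.28, -0.15 and -0.44. On the decitabine arrays they had 2 and 1 of 6 and 1 and 1 of 16 probes bright. Cyp2j5, an epoxygenase of kidney and liver, stood at -0.82, -1.104, -0.95 and -0.64 and Cyp2j6 at -0.23, -0.37, -0.46 and -0.46, with no bright probe in either. Cyp4f14 stood at -0.61, -0.55, -0.83 and -0.42, Cyp4f18, a leukotriene hydroxylase of neutrophils, at -0.82, -0.58, -0.51 and -0.80 with no bright probe, and Cyp4b1 at -0.48, -0.49, -0.57 and -0.82. Cyp4f39, an ultra-long-chain ω-hydroxylase of skin, stood at -1.11, -1.11, -0.78 and -0.52 over 30 probes, with 1, 1, 5 and 7 bright, so both decitabine values were above both untreated values. Of the 30 probes, 27 lay outside the gene model. The 8 probes bright on at least 1 array all lay between -15298 and -19474 bp from the nearest transcript start.

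The bile acid genes had little measurable signal. Cyp7a1, the rate-limiting enzyme of bile acid synthesis, stood at -0.28, -0.46, -0.36 and -0.59 over 15 probes and Cyp7b1, an oxysterol hydroxylase, at -0.46, -0.38, -0.61 and -0.57 over 14, with no bright probe on any array. Cyp8b1, the sterol 12α-hydroxylase, stood at -0.62, -0.59, -0.54 and -0.70 over 16 probes, of which 0, 0, 2 and 2 were bright. For 45 probes of the 3 genes together, 2 bright probes on each decitabine array give 4.44% (Wilson interval 1.23% to 14.8%). Cyp2r1, the vitamin D 25-hydroxylase, stood at -0.56, -0.76, -0.44 and -0.38 over 18 probes, with 0, 0, 0 and 2 bright.

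The remaining single-copy genes showed no common order of the arrays. Cyp2g1, an olfactory enzyme, stood at -0.53, -0.45, -0.35 and -0.70 and had 2, 1, 2 and 2 of 23 probes bright. Cyp2s1, an epithelial enzyme, stood at -0.71, -0.69, -0.31 and -0.28 and had 2, 1, 5 and 4 of 21 probes bright, both decitabine values lying above both untreated values. Cyp4v3 stood at -0.64, -0.40, -0.55 and -0.45 with 1 bright probe of 13, on the KO decitabine array. Cyp4x1, an enzyme of brain, stood at -0.97, -0.84, -0.50 and -0.68 with 1 bright probe of 14, on the WT decitabine array.

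Decitabine against no treatment in WT cells asks how recovery of DNA with the antibody differed with the drug. The 55 P450 genes had a median change of 0.13 (range -0.79 to 1.81, SD over genes 0.37), and 36 of 55 were above 0. All 18332 genes had a median of 0.25, with 79.7% above 0. Only 1 P450 gene, Cyp2a5, was called higher (at least 2-fold, with at least 80% of its probes moving that way), 1.82% of 55 against a background of 1.36% of all genes. The call for lower genes was met by 0 of 55, against 0.0218% of all genes. Cyp2a5 changed by 1.81 (SD over 4 probes 1.39), from -2.20 to -0.39. All 4 of its probes moved up, and 2 were bright with decitabine and 0 without. Without drug all 4 stood at surrogate values, so the untreated level was not above background and rests on the floor. The next largest positive differences were those of Cyp1a1 (0.73, SD 0.98, 3 probes, 1 of them bright on each array and 2 at surrogate values without drug) and Cyp3a25 (0.73, SD 1.08, 3 probes, none bright). The largest negative differences were those of Cyp2c37 (-0.79, SD 0.47, 9 probes), Cyp4a10 (-0.36, SD 1.58, 6 probes) and Cyp2e1 (-0.33, SD 0.74, 18 probes). Cyp2c37, a hepatic epoxygenase, had no bright probe on any array, and its input signal was higher by 0.38 (log2) on the decitabine array.

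In KO cells decitabine against no treatment gave a median change of 0.05 in the P450 genes (range -0.52 to 0.82, SD 0.32), with 30 of 55 above 0, against a median of 0.21 and 76.1% above 0 over all genes. The calls were met by 0 of 55 P450 genes in each direction, against a background of 1.14% higher and 0.0109% lower. Cyp3a16 had the largest positive difference, 0.82 (SD 1.12, 3 probes, from -1.17 to -0.35), with 1 bright probe with decitabine and 0 without. Cyp3a59 followed with 0.74 (SD 0.91, 5 probes, 2 of them bright on each array and 3 on none). All 3 Cyp3a16 probes and 4 of the 5 Cyp3a59 probes have a near-identical copy elsewhere. In all comparisons, signal at these probes cannot be told apart from that of their copies. Cyp2c65, an intestinal epoxygenase, stood at -0.90 without and -0.21 with the drug (0.69, SD 1.30, 8 probes), and 3 of its probes were bright with decitabine and 0 without. The largest negative differences were in the Cyp2c cluster: Cyp2c66 (-0.52, SD 0.38, 6 probes), Cyp2c37 (-0.48, SD 0.46, 9 probes) and Cyp2c55 (-0.43, SD 0.73, 10 probes). Cyp2c66 and Cyp2c37 had no bright probe, Cyp2c55 had 1 on the untreated array, and the input of Cyp2c66 and of Cyp2c37 was higher by 0.31 and 0.30 with decitabine.

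**Figure D4:**
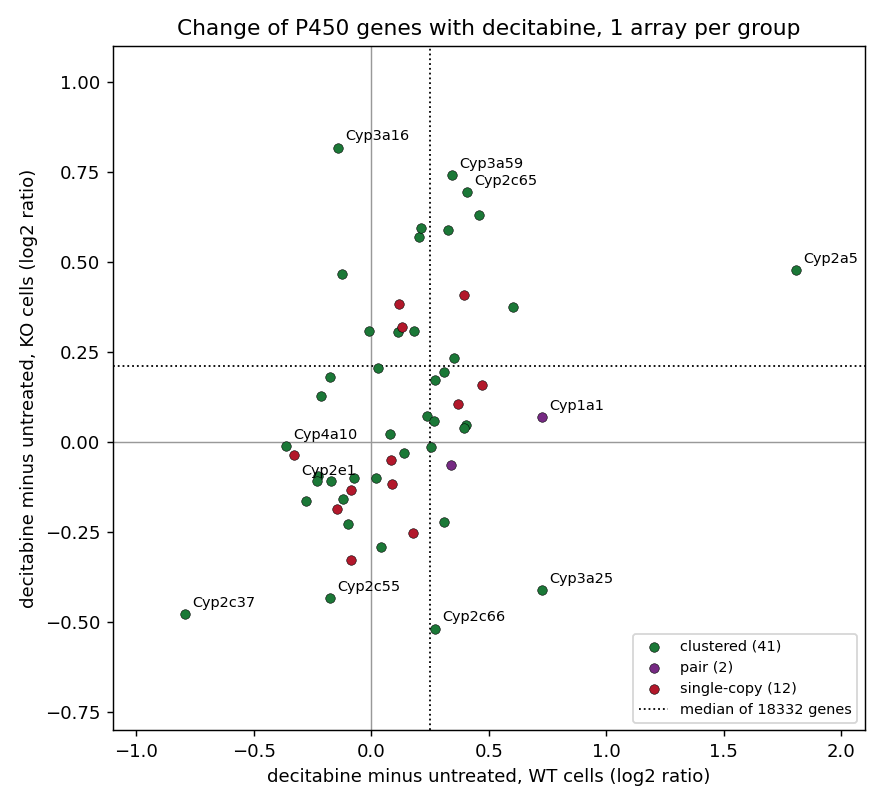
Change of the log2 ratio with decitabine in WT cells (horizontal axis) against that in KO cells (vertical axis) for each of the 55 P450 genes, coloured by group; dotted lines mark the median change of all 18332 genes, 0.25 in WT and 0.21 in KO cells. Cyp2a5 lies furthest right, Cyp2c37 lies lower left, Cyp3a25 lies to the right in WT and below 0 in KO cells, and the other genes form a cloud around 0.

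The 2 decitabine changes share no array. Each rests on 1 treated and 1 untreated array. Above 0 in both genotypes were 25 of 55 genes, and below 0 in both were 14. Over all genes the numbers were 12441 and 2217 of 18332. Changes of at least 0.3 in opposite directions were seen in 1 P450 gene, Cyp3a25 (0.73 in WT and -0.41 in KO cells, with no bright probe on any array), and in 112 genes in all. The difference between the genotypes in the response to decitabine was not tested, as no residual spread is left for it.

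The genotype comparisons use the same 4 arrays as the decitabine comparisons. Without treatment, the P450 genes differed between KO and WT cells by a median of 0.02 (range -0.58 to 0.76, SD 0.27), against 0.09 over all genes. The calls were met by 0 of 55 in each direction, against 0.327% higher and 0.0927% lower over all genes. Cyp2a5 was 0.76 higher in KO cells (SD 0.50, 4 probes, all upward, none bright on these arrays). Of its 4 probes, 4 stood at surrogate values in WT and 2 in KO cells. Cyp4f16 was 0.66 higher (SD 0.65, 8 probes, 7 of them upward, 1 bright on each array and 6 at surrogate values in WT cells) and Cyp1b1 0.37 higher (SD 0.77, 24 probes). Lower in KO cells were Cyp3a59 (difference -0.58, SD 0.74, 5 probes), Cyp2c37 (-0.50, SD 0.34, 9 probes, all downward) and Cyp3a16 (-0.41, SD 0.27, 3 probes). Of these 55 differences, 33 had no bright probe on either array, 10 on 1 array alone and 12 on both.

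With decitabine, the KO minus WT median of the P450 genes was -0.06 (range -0.785 to 0.68, SD 0.29), against 0.04 over all genes. Again 0 of 55 met either call, against 0.524% higher and 0.0655% lower. More could be measured here: 35 of the 55 genes had a bright probe on both arrays. Cyp2b9 was 0.68 higher in KO cells (SD 0.30, 3 probes, none bright), Cyp3a16 0.55 higher (SD 0.82, 3 probes, 1 bright on each array) and Cyp4f16 0.54 higher (SD 0.73, 8 probes, 1 bright on each array). Lower in KO cells were Cyp3a25 (difference -0.785, SD 0.585, 3 probes, none bright), Cyp2a5 (-0.57, SD 0.53, 4 probes, 2 bright on each array) and Cyp2c29, a hepatic arachidonate epoxygenase (-0.55, SD 0.62, 6 probes, none bright).

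A limma model with genotype and treatment as additive terms over the 4 arrays was fitted to all 18332 genes, with 1 residual degree of freedom and Benjamini-Hochberg adjustment. For decitabine it called 8 of 55 P450 genes higher, or 14.5%, where 29.8% of all genes were called higher. It called 1 lower, or 1.82%, where 1.73% of all genes were. The 8 higher genes were Cyp2a5 (1.14, SE 0.24, limma adjusted p = 0.00944), Cyp2c65 (0.55, SE 0.13, limma adjusted p = 0.0134), Cyp2j9 (0.55), Cyp3a59 (0.54), Cyp2a4 (0.49), Cyp4f39 (0.46), Cyp4f13 (0.40) and Cyp2s1 (0.40), and the lower gene was Cyp2c37 (-0.64, SE 0.13, limma adjusted p = 0.00851). Of the higher genes, 7 were clustered and Cyp2s1 was single-copy. All 8 had more bright probes on the decitabine arrays than on the untreated ones, except Cyp3a59 with 2 on each array. Those of Cyp4f39 all lay far upstream of the gene, and most probes of Cyp2a4, Cyp2a5 and Cyp3a59 have near-identical copies. Cyp2c37 had none. The additive model's only residual for a gene is the difference between the 2 genotypes' responses. The SE rests mostly on a spread pooled over all genes, with 9.04 prior degrees of freedom against 1 residual. Surrogate values were more frequent on both untreated arrays than on either decitabine array. For these reasons a small adjusted p here does not show a repeated response. The part of the surrogate values in these calls was not tested.

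These directions depend on how arrays are put on a common scale. The median decitabine change of all genes in WT cells was 0.25 as reported, 0.10 with centring on the kept probes, -0.09 with loess and -0.35 with centring on bright probes. With each array centred on probes bright on all 4 arrays, 7 of the 8 higher genes (not Cyp2a5) fell below 0. The model then called 0 P450 genes higher and 42 lower, and of all 18332 genes 74 higher and 10037 lower. With loess within arrays, Cyp2a4, Cyp2j9, Cyp3a59, Cyp4f13 and Cyp4f39 fell below 0. Here 0 were called higher and 1 lower, against 53 and 202 of all genes. With centring on the kept probes, 1 was called higher and 2 lower, against 2007 and 618 of all genes. With the MeDIP channel alone the numbers were 38 and 0, against 15317 and 13 of all genes. Cyp2a5 stayed above 0 under each of 9 alternatives, from 0.37 to 1.43, and lost the call under 4 of them. Cyp2c37 stayed below 0 under each of 9 alternatives, from -1.37 to -0.02, but kept the call under only 4 of them. It was at -0.02 with the MeDIP channel alone, at -0.06 with loess and at -0.23 with normexp, and was not called there. Relative to all genes, the P450 median change was lower in each of the 4 comparisons under all 11 other settings: with decitabine by -0.12 in WT cells (from -0.35 to -0.07) and by -0.16 in KO cells (from -0.16 to -0.05). Centring on bright probes or on the kept probes shifts all genes of an array alike. Those settings could not change this difference and are no check of it. At a CpG ratio below 0.2, the median log2 ratios of 38 P450 genes were -0.52, -0.53, -0.52 and -0.57 on the 4 arrays. All 3199 genes of that class had -0.44, -0.49, -0.43 and -0.55. At 0.2 to 0.3, 15 P450 genes had -0.75, -0.69, -0.48 and -0.51. All 4103 genes of that class had -0.63, -0.55, -0.40 and -0.41. The part of CpG density in the lower P450 change was not tested.

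For genotype the model called 1 of 55 P450 genes higher in KO cells, 1.82% against 2.96% of all genes, and 0 lower, against 1.12%. At an unadjusted p under 0.05 there were 7 of 55, against 4324 of 18332 genes. The called gene was Cyp4f16 (0.60, SE 0.12, limma adjusted p = 0.0308). It stood at -1.28 and -0.97 on the WT arrays and at -0.62 and -0.43 on the KO arrays, untreated and decitabine in turn, so both KO values lay above both WT values. One of its 8 probes was bright on all 4 arrays and the other 7 on none. It remained above 0 under 9 alternatives, from 0.35 to 0.66, and lost the call under 4 of them.

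Genes that work with or regulate P450 enzymes were set beside the P450 genes. Of 24 listed electron donors, nuclear receptors and liver transcription factors, 23 were measured, with 528 probes, of which 3.98%, 6.25%, 15.2% and 15.0% were bright, against 4.07%, 4.06%, 14.2% and 16.03% of the probes of all genes. For decitabine 7 of 23 were called higher (30.4%, against 29.8% of all genes) and 0 lower: Hnf4a (0.64, limma adjusted p = 0.0108), Nr0b2 (0.57), Fdx1 (0.51), Ppara (0.50), Nr1i3 (0.46), Cyb5r3 (0.41) and Por (0.39). Por, which hands electrons to the microsomal P450 enzymes, stood at -1.06, -0.81, -0.70 and -0.39. Hnf4a, the hepatocyte nuclear factor that drives many P450 promoters, stood at -0.87, -0.56, 0.00 and -0.15, with 0, 0, 5 and 6 of 26 probes bright. Nr1i2 and Ahr, the receptors for drugs and dioxins, were not called. P450 families with 2-digit numbers, which make steroids and break down retinoids, had 4 of 14 called higher (Cyp26c1, Cyp17a1, Cyp26b1 and Cyp19a1) and 18.4% of 239 probes bright on the KO decitabine array. The difference between these sets and the 55 P450 genes was not tested.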

How the data were processed

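MeDIP and input DNA were each whole-genome amplified and hybridised together, MeDIP in Cy3 and input in Cy5, with no dye swap, per the labels' protocols. The intensity values are the authors' deposited Agilent Feature Extraction 10.5 processed signals, already background-subtracted and dye-normalized (file headers 10.5.1.1). The deposited log10 ratio served as an alternative. Flag columns of the deposited files hold other values, 0 or 1. Of 520554 probes, 328399 (63.1%) had input well above background on all 4 arrays and no outlier flag, and entered. The log2 MeDIP over input ratio was centred on the median of each array and averaged over at least 3 probes per gene. Fits used limma 3.58.1 over 18332 genes with Benjamini-Hochberg adjustment, and the script was tested on simulated data. Near copies were found with blastn 2.17.0 (at least 90% identity over 90% of a probe). Coordinates are mm9. Wilson intervals are at 95% and cover counting error only, and the number of arrays limits precision. No label says that the arrays come from separate cultures.

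Named genes were the called genes, the 3 largest rises and falls per comparison, the 3 highest and 3 lowest means, the 5 with most probes bright on both decitabine arrays, all single-copy genes and chosen representatives. The members and lists were chosen with earlier results of these data known.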

Additional observations from a re-analysis of the deposited data

Results flagged for a closer look

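The Cyp3a25 values with and without decitabine differed by 0.73 in WT and by -0.41 in KO cells, which are apart by -1.14. This was not tested. None of its 3 probes was bright on any array, so no response with a direction was measured.

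The P450 probes that were left out for dim input held few bright MeDIP signals. On the KO decitabine array 3 of 405 were bright, against 1 on the WT untreated, 0 on the KO untreated and 1 on the WT decitabine array.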

How the results depend on the processing

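The median P450 change minus that of all genes kept its sign in each of the 4 comparisons under 11 alternatives. For centring on bright or on kept probes this was fixed in advance, because a shift of a whole array cancels in the difference. Other results moved as follows, and the cause was not tested. The values come in the array order of the report. The clustered minus single-copy gap on the WT untreated array (-0.07) became 0.0454 with the deposited log ratio, 0.0360 with loess, 0.0695 with the median over probes, 0.0985 without the input filter, 0.0626 with probes bright on at least 1 array, and 0.0160 with 2-digit families counted. On the KO untreated array (-0.06) it became -0.17 with normexp, -0.14 with loess, -0.71 with bright probes and 0.0300 with 2-digit families. On the WT decitabine array (0.01) it became -0.0613 with loess, 0.0718 without the filter and -0.80 with bright probes. On the KO decitabine array (0.06) it became -0.0644 with loess, -0.0387 without the filter, -0.42 with bright probes and -0.0336 with 2-digit families. Alternatives chosen after seeing the data gave 0.0939 (MeDIP channel alone) and 0.0257 (without Cyp2d) on the WT untreated array, -0.0143 on the KO decitabine array (clusters by position), and -0.21, -0.14 and -0.10 on the first 3 arrays without Cyp2c.

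Bright shares fell to 2.48%, 1.81%, 6.88% and 8.41% without the input filter. For decitabine in WT cells the number called higher (1) became 0 with centring on bright probes or without the filter, 2 with the deposited log ratio or the MeDIP channel alone, and 6 with bright probes, and the number called lower (0) became 1 with centring on bright probes. In KO cells 7 were called higher with bright probes and 1 with the MeDIP channel alone, and 13 were called lower with centring on bright probes and 1 with loess. For KO minus WT without treatment 1 was called higher with normexp, the median over probes or bright probes, and 1 lower without the filter. With decitabine 1 was called higher with the median over probes or bright probes, and 1 lower with centring on bright probes, loess or the median over probes. Counts over all genes under these settings are not given, so these counts are not read as particular to P450 genes.

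In limma's decitabine fit, calls higher and lower (8 and 1) became 0 and 42 with centring on bright probes, 4 and 2 without the filter, 1 and 0 with the deposited log ratio or the median over probes, and, chosen after seeing the data, 1 and 2 with centring on kept probes and 38 and 0 with the MeDIP channel alone. Calls higher became 0 with loess, and calls lower became 0 with normexp or bright probes. Over all genes, calls higher and lower (5459 and 318) became 2342 and 720 without the filter and 257 and 11 with the deposited log ratio. They became 977 and 46 with the median over probes, 3745 and 45 with normexp, and 9253 and 2 with bright probes. Centring on bright probes turned Cyp2a4 (-0.25), Cyp2c65 (-0.19), Cyp2j9 (-0.19), Cyp2s1 (-0.34), Cyp3a59 (-0.20), Cyp4f13 (-0.34) and Cyp4f39 (-0.28) below 0, and loess turned Cyp2a4 (-0.0763), Cyp2j9 (-0.10), Cyp3a59 (-0.57), Cyp4f13 (-0.12) and Cyp4f39 (-0.24). Genotype calls higher (1) became 0 with centring on bright probes, the deposited log ratio, loess, the median over probes or bright probes, and 3 with normexp. Genotype calls lower (0) became 1 with loess or the MeDIP channel alone and 8 without the filter. Genotype counts over all genes under these settings are not given.

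No paired analysis was possible because each group had 1 array, and leaving out an array would have emptied its group. With MeDIP signal above background at 2.96% to 13.3% of the P450 probes, most ratios rest on signal near the floor.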
